A study of Mus musculus with 4 samples.

Results

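PP cells, also called gamma cells, are the islet cells that make pancreatic polypeptide, the product of Ppy. Here they were the cell barcodes with at least 500 detected genes and under 20% mitochondrial counts in which Ppy made up at least 3% of the unique molecular identifiers (UMIs, each tagging 1 captured RNA molecule). They also had to hold more Ppy than Sst counts and under 10% of their UMIs from Gcg. This rule found 226 PP cells among the 6995 barcodes that passed the limits on genes and mitochondrial counts, and among 11114 barcodes in all.

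Pancreatic polypeptide belongs to the neuropeptide Y family, short amidated peptides that act through the Y receptors. It is released after meals under vagal control and is known for restraining appetite and the secretions of the exocrine pancreas. PP cells are a minor endocrine cell type that lies mostly in the part of the pancreas formed from the ventral bud, and peptide YY, the product of the neighbouring gene Pyy, is made in several islet cell types.

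Islet cells of 2-month-old mice were counted by inDrops, a droplet method that reads the 3′ end of each RNA. The 2 mutant samples had the genotype Atf4F/F; Ins1Cre, that is, floxed Atf4 alleles with a Cre recombinase driven from the insulin gene Ins1, and the 2 control samples had the genotype Atf4F/F without the driver. The floxed alleles are thus shared by all 4 samples, the driver is found in the mutants alone, and it is meant for beta cells, so Atf4 was not targeted in PP cells by design. Every sample pooled the islets of several animals: the design names 2 males and 2 females, the protocol 3 to 4 mice. With 2 pools in each group, p-values cover the spread of pools and do not speak to that of single mice. In the following, values per sample are given in the order mutant 1, mutant 2, control 1, control 2.

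The PP cells numbered 68, 29, 77 and 52, and their summed counts came to 477354, 204013, 521987 and 355196 UMIs. The median PP cell held 4239.5, 5246, 3597 and 5276 UMIs, and the deepest single cell supplied between 9.07% and 10.4% of its sample's sum. Levels below are CPM, the counts of a gene per 1e6 UMIs of such a sum, not scaled further. Differences are log2 values from edgeR with TMM scaling, with the standard error (SE) and the p adjusted by Benjamini and Hochberg over all genes tested, and a gene passed at an adjusted p under 0.05. PP cells were set beside 939 alpha, 643 delta and 3879 beta cells, gated on Gcg, Sst and insulin counts, in the same 4 samples. Of 10731 barcode sequences, 375 occurred in more than 1 library, as did 19 of the PP barcodes, but none marked a PP cell in 2 libraries. The 2 controls differed from each other in the PP sums more than the 2 mutants did (chi-square per degree of freedom 7.72 and 1.85), and control 2 stands apart in the insulin content described below.

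Ppy and Pyy lie side by side on chromosome 11 on the minus strand, and their starts are 6513 bases apart. Ppy spans chr11:102099930-102101319 and Pyy chr11:102106676-102107832 (GENCODE vM21, GRCm38). The 100 bases before each start are shown because Ppy chose the cells and Pyy, its neighbour, was high in the same cells. They are from RefSeq on GRCm38.p6, read on the minus strand, and a script searched both strands for TATAAA and CANNTG. Capitals mark TATAAA in Ppy (31 to 26 bases before the start) and the CANNTG match CAAGTG in Pyy (36 to 31 bases before it).
Ppy promoter, chr11:102101320-102101419: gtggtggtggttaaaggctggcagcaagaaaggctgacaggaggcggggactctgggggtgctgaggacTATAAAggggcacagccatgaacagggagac
Pyy promoter, chr11:102107833-102107932: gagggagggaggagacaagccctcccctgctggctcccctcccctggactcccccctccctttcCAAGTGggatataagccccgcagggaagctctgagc
TATAAA occurs in 5.95% and CANNTG in 34.3% of the same windows of 27025 promoters, and neither match shows that a factor binds there.

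The hormone that chose the cells made up a large part of their RNA. Ppy stood at 99425, 110699, 99648 and 71876 CPM in PP cells, against 4388 to 8247 CPM in alpha, 8346 to 12652 CPM in delta and 72.4 to 199 CPM in beta cells. These levels follow from the rule and carry no test. Just outside the rule, 141 barcodes had 2% to 3% Ppy, with median shares of 2.43% Pyy and 3.46% Sst. Just inside it, 69 barcodes had 3% to 4% Ppy, of which 35 were PP cells. In all 327 barcodes reached 3% Ppy, and 226 of them were PP cells. The Sst limit left out 59 and the Gcg limit 44, and barcodes that failed both limits are in both counts.

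PP cells fell into cells with few and cells with many insulin counts. In 140 of the 226 cells Ins1 and Ins2 together made up under 10% of UMIs, of which 96 lay under 1% and 31 between 1% and 2%. Of the other 86 cells, 23 lay between 20% and 30% and 49 between 30% and 50%. The cells under 10% numbered 44, 22, 58 and 16, and the cells at 10% or more numbered 24, 7, 19 and 36. Insulin-rich cells thus made up 35.3%, 24.1%, 24.7% and 69.2% of the PP cells, and control 2 was the sample in which they were the majority (95% Clopper-Pearson interval 54.9% to 81.3%; such intervals cover counting error only). The insulin-low cells had a median of 14.2% Ppy, 11.1% Pyy and 0.759% insulin at a median depth of 3607.5 UMIs. The insulin-rich cells had 4.46% Ppy, 2.74% Pyy and 32.3% insulin at 6003.5 UMIs. They supplied 37.6%, 38.7%, 35.4% and 72.9% of the summed PP counts, and 45.0% over all samples. Levels and tests of all PP cells rest on these sums.

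**Figure D1:**
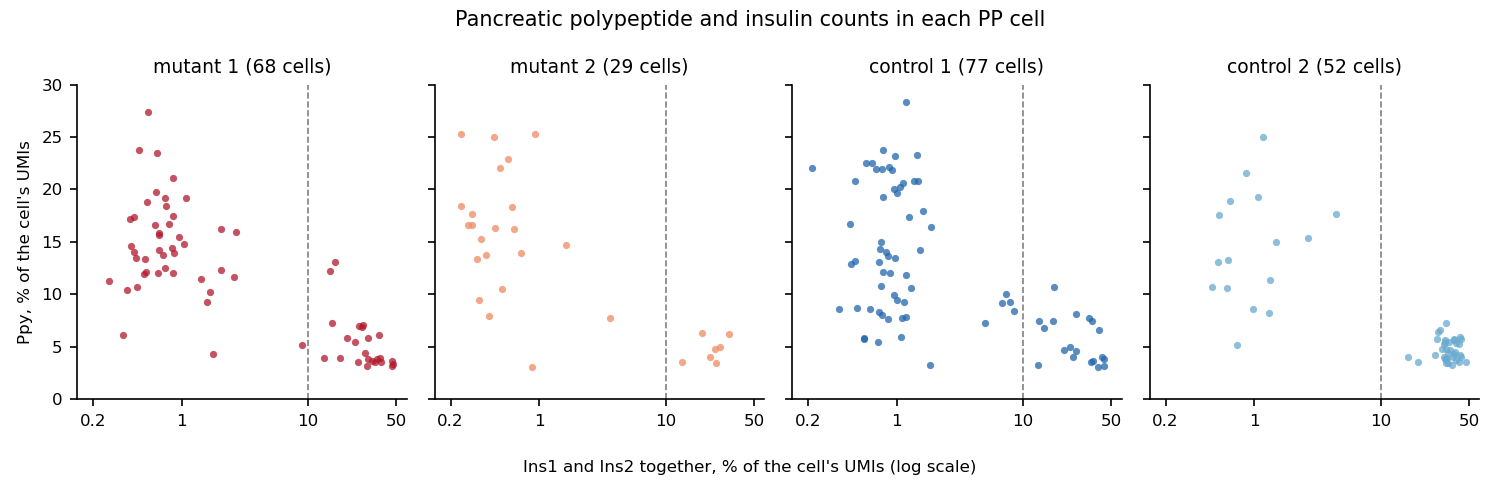
Each point is a PP cell, with its share of UMIs from Ins1 and Ins2 on the horizontal axis (log scale) and its share from Ppy on the vertical axis, in a panel per sample. The dashed line marks 10% insulin, with 24, 7, 19 and 36 cells at or to the right of it in mutant 1, mutant 2, control 1 and control 2.

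Several genes known from beta cells followed the insulin counts. Slc2a2, the glucose transporter of mouse beta cells, stood at 10.1, 16, 8.89 and 0 CPM in the insulin-low PP cells and at 329, 304, 417 and 432 CPM in the insulin-rich ones. Every insulin-rich value lay above every insulin-low value and below the 686 to 766 CPM of beta cells. Ucn3, which encodes the peptide urocortin 3 of mature beta cells, stood at 26.8, 8, 26.7 and 31.2 CPM in insulin-low and at 424, 431, 526 and 583 CPM in insulin-rich PP cells. The calcium-activated channel gene Trpm5 stood at 0, 8, 2.96 and 0 CPM against 78.1, 139, 114 and 232 CPM. The adrenergic receptor gene Adra2a had no count in the insulin-low PP cells of any sample and 44.6, 50.7, 70.4 and 61.8 CPM in the insulin-rich ones. These 4 genes thus separated the insulin classes in all samples. They do not stand for all beta cell genes, and Adra2a is not among the 10 beta cell markers used here. Of those 10, Mafa had no count in any PP cell. Its level in beta cells is not given here, so that absence does not set PP cells apart from beta cells. The classes were cut on insulin, so these values are descriptions, and whether an insulin-rich barcode held 1 cell or more was not tested.

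**Figure D2:**
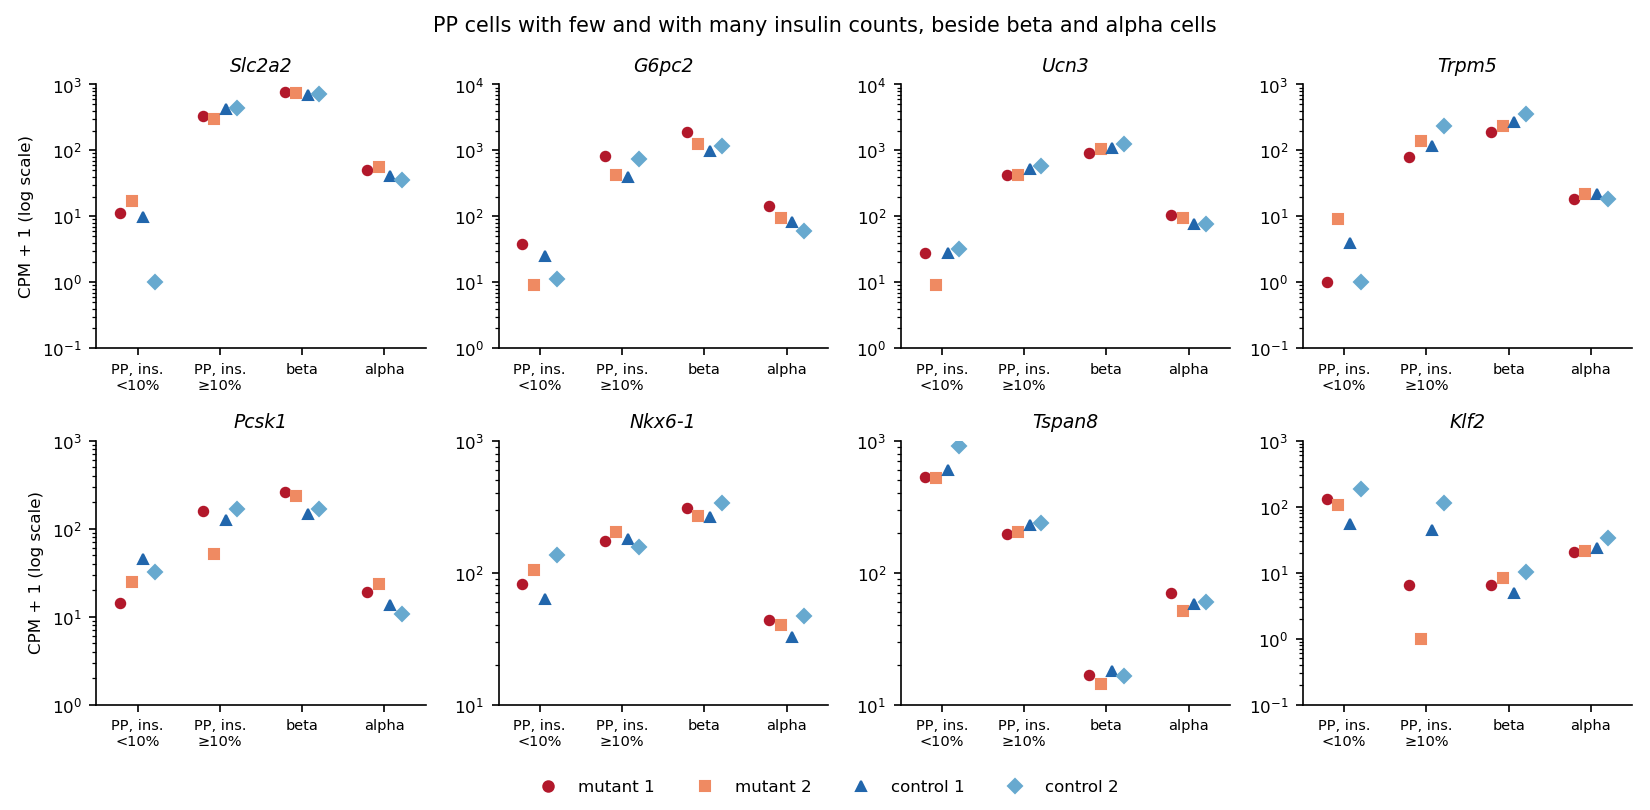
Levels (CPM + 1, log scale) of 8 genes in PP cells under and at or over 10% insulin and in beta and alpha cells, a point per sample. Slc2a2, G6pc2, Ucn3 and Trpm5 were low in the insulin-low PP cells, and Tspan8 and Klf2 had higher levels there than in beta cells in all 4 samples.

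Counts of other hormones were common in PP cells but had a background. With each cell thinned to 1000 UMIs (3 PP cells were shallower and left out), 48.9% of PP cells held a Sst UMI and 65.5% a Gcg UMI. The shares among endothelial barcodes, which should make neither hormone, were 48.1% and 57.5% in the same thinning (median depths before thinning 4464 and 2690.5 UMIs). The shares among macrophage barcodes were 35.7% for Sst and 54.8% for Gcg. Neither of these gates limited insulin, which made up 18.2% of the endothelial and 15.3% of the macrophage sums. The median barcode held 1.76% and 1.38%. Whether some of these barcodes also held an endocrine cell was not tested. The Sst share of PP cells was thus near that of endothelial and above that of macrophage barcodes. By sample it was 35.8%, 44.8%, 50.7% and 65.4%, against 38.5%, 56%, 48% and 45.8% in endothelial barcodes. The rule that chose PP cells limited their Sst and Gcg counts, so these shares are descriptions. Before thinning, 45 PP cells had at least 1% of their UMIs from Sst and 77 had at least 1% from Gcg. Ppy itself was found in 36.3% of thinned endothelial and 22.6% of thinned macrophage barcodes. The ghrelin gene Ghrl was found in 0.897% of PP cells. The neuropeptide Y gene Npy had no UMI in 223 thinned PP cells (upper limit of the interval 1.64%), although it was seen at up to 14.1 CPM in the unthinned sums.

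The labelled cell type was checked against Pyy, Etv1 and Tspan8 beside Ppy. Pyy stood at 79010.5, 78225, 83897 and 51985 CPM in PP cells and at no more than 21740.3 CPM in any sum of alpha, delta or beta cells. Tspan8, which encodes a tetraspanin of the cell membrane, stood at 406, 397, 466 and 417 CPM against 49.8 to 69.2 CPM in alpha, 170 to 257 CPM in delta and 13.4 to 17.1 CPM in beta cells. Neither gene overlapped between PP cells and the other gates. Etv1, an ETS family transcription factor, did not set PP cells apart: it stood at 339, 407, 324 and 172 CPM in PP cells and at 412, 357, 328 and 271 CPM in alpha cells (log2 difference −0.10 ± 0.114 SE, edgeR adjusted p = 0.635). It was nevertheless above the levels of beta cells (4.61 ± 0.137, adjusted p = 5.03e-24 by edgeR). After thinning, Tspan8 was found in 31.4% of PP cells and in 3.75% of endothelial barcodes, and Etv1 in 25.1% and 2.50%.

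Against alpha cells, 693 of 10320 tested genes were higher in PP cells (6.72%) and 616 were lower (5.97%). Against delta cells 390 were higher (3.78%) and 367 lower (3.56%), and against beta cells 1242 were higher (12%) and 1067 lower (10.3%). Both directions together made up 12.7%, 7.34% and 22.4% of the tested genes. The split depended on the scaling: with library totals in place of TMM it was 537 to 762 against alpha, 314 to 431 against delta and 1902 to 675 against beta cells, where the median of all genes stood at 0.18. With the insulin-low PP cells alone, the counts were 334 and 417, 477 and 616, and 1242 and 1235. That limit applied to PP cells only, and the alpha and delta gates did not limit insulin. Insulin made up 4.04% of all alpha and 17.1% of all delta counts, against 12.6% in all PP cells. The part of insulin-rich barcodes of those gates in the differences was not tested. Ppy, Sst, Gcg, Ins1, Ins2 and mitochondrial genes chose the cells and were not tested.

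In PP cells, 74 genes were higher than in alpha, delta and beta cells alike (0.717% of those tested), and 33 were lower than in all 3 (0.320%). With the insulin-low PP cells alone, 60 of the 74 and 25 of the 33 still passed all 3 tests. With the control samples alone, 26 and 6 did, each with the same sign. Of the 25 genes named among the 74 by the size of their smallest difference, 17 passed all 3 tests under every alternative run. Genes named against the other gates were chosen by these same tests, so their lack of overlap is a description and adds no support. The share of all genes without such overlap was not counted.

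Membrane proteins and receptors made up several of the 25. Spp1, which encodes the secreted phosphoprotein osteopontin, had the largest of these smallest differences and is described first. It stood at 532, 289, 280 and 146 CPM in PP cells, against 16.1 to 43.2 CPM in alpha, 18.9 to 48.3 CPM in delta and 1.50 to 39.8 CPM in beta cells. The lowest PP value lay above the highest value of any other gate, at log2 differences of 3.55 ± 0.319, 3.47 ± 0.323 and 4.70 ± 0.279 (edgeR adjusted p = 4.13e-10, 1.15e-09 and 2.46e-15). Spp1 is also a duct marker. The 5 duct markers, Spp1 included, summed to 763, 456, 460 and 310 CPM in PP cells, against 126 to 192 CPM in alpha, 172 to 227 CPM in delta and 180 to 237 CPM in beta cells. Of the other 4, Krt19, Sox9 and Cftr were at 0 to 8.38 CPM in PP cells. Krt7 was at 160 to 222 CPM, higher than in alpha cells (0.72, edgeR adjusted p = 0.000106) and not past the test against delta or beta cells. The part of duct cell RNA in the Spp1 level was not tested. In mutant 1, 34.3% of the Spp1 counts came from 1 of the 35 cells that held any.

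Cd9, a tetraspanin like Tspan8, stood at 155, 137, 195 and 189 CPM in PP cells and at no more than 68.0 CPM elsewhere. Nrp1, a co-receptor for semaphorins and vascular endothelial growth factor, stood at 260, 201, 211 and 152 CPM, and at no more than 99.3 CPM elsewhere. For these genes too the 4 PP values lay above all 12 values of the other gates, a description of genes chosen by their differences. The log2 differences against alpha, delta and beta cells were 1.83, 2.68 and 3.51 for Cd9 and 1.98, 1.80 and 3.89 for Nrp1 (largest edgeR adjusted p 1.26e-05).

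The folate receptor gene Folr1 stood at 157, 132, 167 and 87.3 CPM in PP cells, at 48.6 to 81.2 CPM in delta cells and at most at 39.9 CPM in alpha cells. Its lowest PP value, in control 2, was close to its highest delta value. Nrxn3 and Cntnap5b, which encode cell adhesion proteins of the neurexin superfamily, and Olfm3, which encodes a secreted olfactomedin, were higher in PP cells by at least 1.49, 0.79 and 1.00 on the log2 scale. With the controls alone, Nrxn3 and Cntnap5b no longer passed against alpha or delta cells, with differences of 0.63 and 0.57 against alpha and 1.18 and 0.63 against delta cells.

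Mapk10, which encodes the stress kinase JNK3, separated a library from the rest. It stood at 1332, 1034, 1096 and 53.5 CPM in PP cells, from 636, 211, 572 and 19 UMIs. Control 2 was also lowest in alpha cells (108 against 257 to 333 CPM) and in delta cells (96.0 against 338 to 431 CPM), while beta cells held 67.8 to 108 CPM in all samples. Its insulin-low PP cells alone held 52.0 CPM, against 1345 to 1738 CPM in those of the other samples. Without control 2 the log2 differences of Mapk10 were 2.02, 1.66 and 3.60, against 1.80, 1.51 and 3.02 with all samples, and all 6 passed the edgeR test.

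The remaining named genes included stress and cytoskeleton genes. Hspb8, a small heat shock protein gene, stood at 62.8, 103, 119 and 39.4 CPM in PP cells and Gsn, which encodes the actin-severing protein gelsolin, at 136, 123, 125 and 113 CPM. The highest Gsn level in any other gate was 67.5 CPM, so Gsn did not overlap, whereas Hspb8 in control 2 lay within the range of alpha and delta cells. Both passed all 3 tests, with smallest differences of 1.30 and 1.00. Sat1 (a polyamine acetyltransferase), Inha (inhibin alpha), Bbc3 (the cell death protein PUMA), Ptp4a3 and Phlda1 passed more narrowly, with smallest differences of 0.93, 0.91, 0.81, 0.83 and 1.05. All 5 lost a call in at least 1 setting. Phlda1 no longer passed any of its 3 tests without mutant 1 (differences 0.74, 0.44 and 0.80 against alpha, delta and beta cells).

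**Figure D3:**
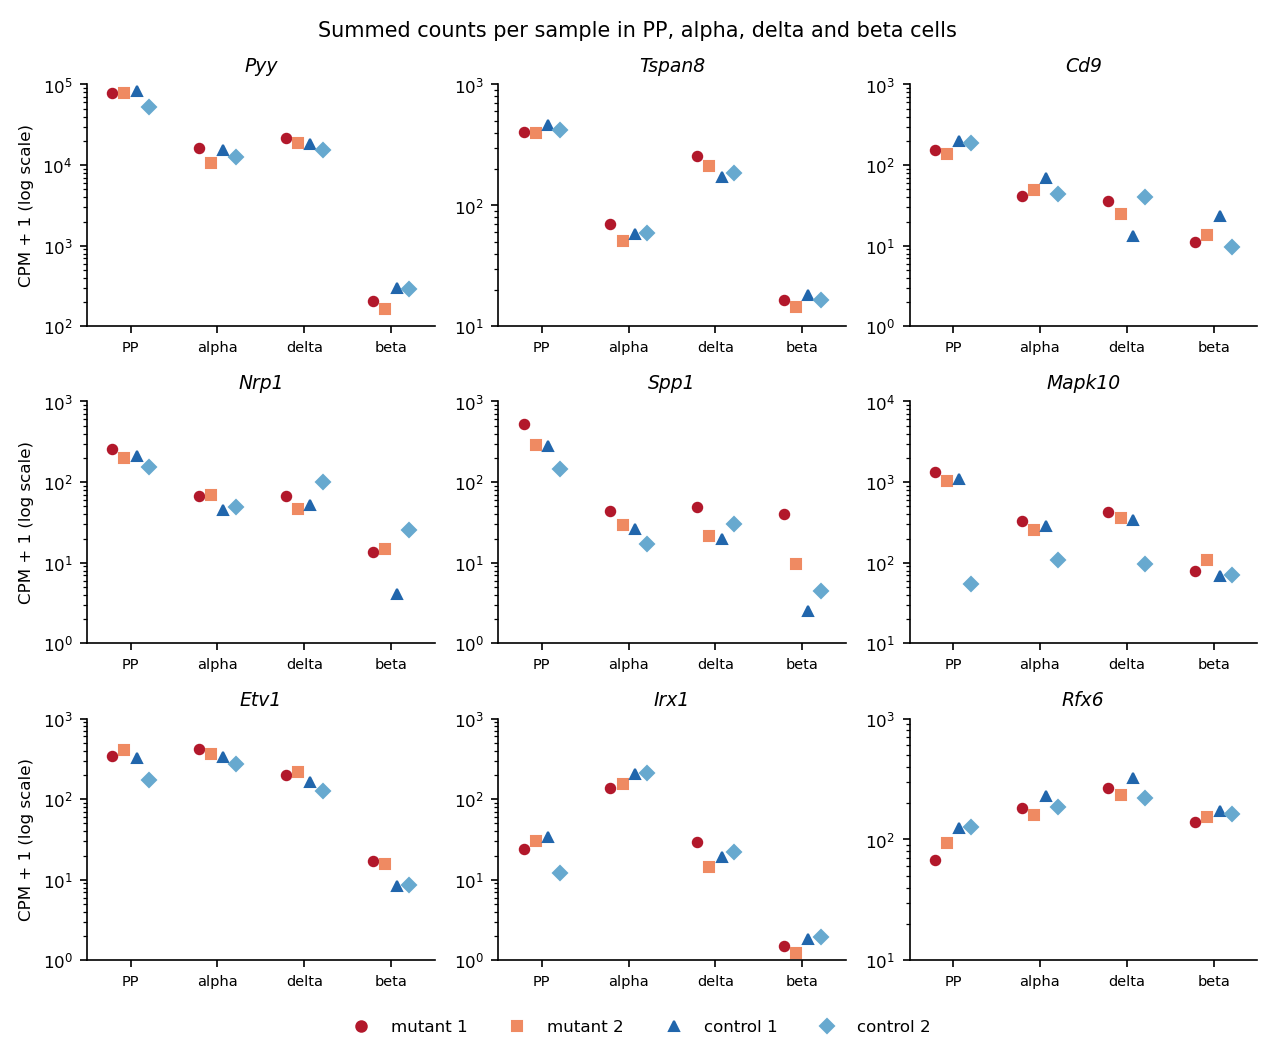
Levels (CPM + 1, log scale) of 9 genes in PP, alpha, delta and beta cells, a point per sample. Pyy, Tspan8, Cd9, Nrp1 and Spp1 were higher in PP cells than in every other gate without overlap, control 2 stood apart for Mapk10, and Etv1 did not separate PP from alpha cells.

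Genes lower in PP cells included transcription factors and an ion channel. Rfx6, a transcription factor needed for islet cell development, stood at 67, 93.1, 123 and 127 CPM in PP cells, against 159 to 228 CPM in alpha, 218 to 320 CPM in delta and 139 to 171 CPM in beta cells. All PP values lay below all others, and the differences were −0.83 ± 0.147, −1.31 ± 0.143 and −0.81 ± 0.14 (edgeR adjusted p = 0.000106, 2.93e-08 and 3.04e-05). Kcnb2, a voltage-gated potassium channel gene, stood at 31.4, 49.0, 32.6 and 31.0 CPM and was lower by 1.30, 2.10 and 1.27 on the log2 scale. Rspo4, which encodes a ligand that strengthens Wnt signals, stood at 6.28, 0, 1.92 and 5.63 CPM in PP cells and at 9.07 to 32.5 CPM elsewhere. Adarb1, an RNA-editing deaminase gene, stood at 8.38, 4.90, 1.92 and 2.82 CPM and at 11.8 to 31.1 CPM elsewhere. Lrp8, a receptor for reelin and apolipoprotein E, stood at 20.9, 4.90, 15.3 and 14.1 CPM and at 27.0 to 66.0 CPM elsewhere. None of these genes overlapped between PP cells and the other gates, but they were chosen by these differences and the lowest rest on few UMIs. Of the 12 genes named as lower, Kcnb2, Lrp8 and Rfx6 passed all 3 tests under every alternative run. The other named genes were Lrrn1, Xist, Rpia, Crtc3, Qk, Snhg11 and Eya2.

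Islet transcription factors were found in both directions against each of the other types. Among all tested genes, 12.7%, 7.34% and 22.4% passed in either direction against alpha, delta and beta cells. Of 27 tested factors, 6 were higher and 5 lower than in alpha cells, 4 higher and 9 lower than in delta cells, and 10 higher and 8 lower than in beta cells (medians −0.03, −0.16 and 0.07, beside 0.00, 0.01 and 0.01 over all genes). Irx1, a factor of alpha cells, stood at 23.0, 29.4, 32.6 and 11.3 CPM in PP cells and at 135 to 212 CPM in alpha cells, without overlap (−2.82 ± 0.217, edgeR adjusted p = 1.01e-11). Nkx6-1, a factor of beta cells, was 1.70 above alpha and 1.40 below beta cells on the log2 scale. Its level in insulin-low PP cells was 80.5, 104, 62.2 and 135 CPM, above the 31.8 to 45.8 CPM of alpha cells. Hhex, a factor of delta cells, was 2.72 lower than in delta cells.

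A list of 18 gamma cell genes was compared next; its genes are in part those of the rule or chosen with earlier results known. Of 12 tested members, 6 were higher than in alpha, 7 than in delta and 10 than in beta cells, and 2 were lower than in delta cells (medians 0.64, 0.96 and 3.37). The 6 members not tested or used by the rule include Aqp3 and Ptgfr, which had no count in PP cells, and Id4, at 0 to 4.90 CPM. Of the 8 genes of the neuropeptide Y family and its receptors, 7 were in the files and only Pyy and Npy had enough counts to test. Npy stood at 0, 0, 9.58 and 14.1 CPM in PP cells, at 0 in the insulin-low ones, and was lower than in delta and beta cells by 1.91 and 3.18 (edgeR adjusted p = 0.0113 and 1.3e-07).

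Genes of prohormone processing and secretory granules moved in both directions. Of 27 tested, 9 were higher and 7 lower than in alpha cells, 5 and 3 in the comparison with delta cells, and 6 and 9 in that with beta cells (medians 0.04, 0.02 and −0.04). In either direction, 12.7%, 7.34% and 22.4% of all tested genes passed against alpha, delta and beta cells. Scg2, a granin, stood at 3352, 2951, 3483 and 3390 CPM against 1165 to 1275 CPM in alpha cells. Slc30a8, the zinc transporter of insulin granules, stood at 373, 441, 291 and 400 CPM against 720 to 1110 CPM in alpha and 834 to 1141 CPM in beta cells. Pcsk1, a prohormone convertase, was 2.41 above alpha and 1.45 below beta cells, and it stood at 13.4, 24.0, 44.5 and 31.2 CPM in the insulin-low and 156, 50.7, 125 and 166 CPM in the insulin-rich PP cells. Its level in PP cells as a whole therefore moved with the insulin-rich cells. Of 5 tested peptide precursors, 4 were higher than in alpha cells, 4 lower than in delta cells and 5 lower than in beta cells. Iapp, Ucn3 and Pdyn were in each count. The medians of the 5 against alpha, delta and beta cells were 1.55, −0.77 and −2.18. Over all tested genes, 6.72% were higher than in alpha, 3.56% lower than in delta and 10.3% lower than in beta cells. The counts cover all PP cells, and Ucn3 was far lower in the insulin-low than in the insulin-rich ones, as given above. Insulin was not limited in delta cells and made up 17.1% of their counts, against 12.6% in PP cells.

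Receptor and channel genes moved in both directions too. Of 18 tested receptors, 5 were higher and 3 lower than in alpha cells, 3 and 1 against delta cells, and 4 and 9 against beta cells (medians 0.36, −0.13 and −0.48). Chrm3, the muscarinic receptor through which the vagus acts on islet cells, stood at 237, 250, 167 and 180 CPM in PP cells and at 221, 208, 139 and 93.6 CPM in the insulin-low ones, against 28.9 to 59.2 CPM in alpha cells. It did not overlap with alpha cells in either class (2.14 for all PP cells, edgeR adjusted p = 1.61e-12). Gpr119, a receptor for lipid amides, was higher than in delta and beta cells by 1.43 and 1.15 and lower than in alpha cells by 0.70. Avpr1b, a vasopressin receptor gene, was 2.42 above delta cells and 1.02 below alpha cells, at 5.75 to 24.5 CPM. Of 20 tested channel and coupling genes, 3 were higher and 4 lower than in alpha cells, and 2 and 4 against delta cells. Against beta cells 5 were higher and 8 lower. Their medians against alpha, delta and beta cells were −0.21, −0.38 and −0.35. Beside both lists, 12.7%, 7.34% and 22.4% of all tested genes passed in either direction against alpha, delta and beta cells. Kcnk3, a background potassium channel gene, stood at 142, 88.2, 144 and 92.9 CPM in PP cells, 125 to 180 CPM in alpha cells and at most 4.34 CPM in beta cells.

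Immediate early genes, which cells switch on within minutes of a stimulus or of handling, were higher in PP cells than in delta and beta cells. Of 19 tested, 17 were higher than in delta and 18 than in beta cells, with none lower (medians 0.82 and 1.17). Against alpha cells 1 was higher and 2 were lower (median 0.03). Klf4 stood at 126, 172, 102 and 95.7 CPM in PP cells, against 118 to 154 CPM in alpha, 13.2 to 22.7 CPM in delta and 14 to 19.3 CPM in beta cells. Klf2 was the member above alpha cells, at 83.8, 63.7, 49.8 and 132 CPM against 19.6 to 32.1 CPM (1.90 ± 0.216, edgeR adjusted p = 5.93e-08). Nr4a2 was lower than in alpha cells by 1.21 and Dusp1 by 0.42. The median depth of PP cells, 4464 UMIs, was near that of alpha (4282) and delta cells (4314) and below that of beta cells (7317).

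Chaperones of the endoplasmic reticulum and ribosomal proteins ordered the cell types in opposite ways. Of 22 tested chaperone genes, 18 were higher and none lower than in alpha cells, and 14 were lower and none higher than in beta cells (medians 0.61 and −0.54). Against delta cells 3 were higher and 2 lower. Of all tested genes, 6.72% were higher than in alpha cells and 10.3% lower than in beta cells. Dnajb9 stood at 318, 294, 341 and 346 CPM in PP cells against 106 to 174 CPM in alpha cells. Ero1lb, which renews the oxidation of disulphides, followed insulin, with 117, 104, 74.1 and 83.2 CPM in insulin-low and 1350, 861, 786 and 1274 CPM in insulin-rich PP cells. Of 84 tested ribosomal protein genes, 44 were lower than in alpha cells, 9 were higher than in delta cells and 70 were higher than in beta cells (medians −0.32, 0.19 and 0.58). None moved the other way in those 3 comparisons. Rps24 stood at 1171, 1245, 1318 and 1033 CPM in PP cells, 1562 to 1923 CPM in alpha cells and 550 to 778 CPM in beta cells. These shares are relative to the summed counts of each gate, of which hormones took different parts.

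Among 5 tested sex-linked genes, Eif2s3y was higher and Xist lower in PP cells than in each of the other gates. Ddx3y was higher than in alpha cells alone (0.86, edgeR adjusted p = 0.0245), and Uty and Kdm5d did not pass against any gate. Eif2s3y, a Y-linked gene for a translation initiation factor subunit, stood at 81.7, 127, 84.3 and 45.0 CPM in PP cells and at 14.5 to 34.0 CPM in the other gates. Xist, the RNA that silences an X chromosome in females, stood at 29.3, 4.90, 11.5 and 25.3 CPM in PP cells. Both passed against all 3 gates, with differences from alpha, delta and beta cells of 1.76, 1.51 and 1.63 for Eif2s3y and −1.50, −1.20 and −1.25 for Xist (edgeR adjusted p at most 4.99e-06 and 0.00729). For Xist, the call against delta cells was lost without mutant 1, mutant 2 or control 1 (adjusted p = 0.051, 0.0516 and 0.152), and with the controls alone it was lost against delta and beta cells (0.298 and 0.0792).

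Counted per cell, a measure chosen after these values were seen, 10 of the 97 PP cells that held counts of either kind but not both had Xist alone (10.3%, 95% Clopper-Pearson interval 5.06% to 18.1%). By sample the shares were 17.9%, 0%, 8.82% and 12.5%. The intervals of the PP shares lay below those of beta cells of the same sample in mutant 1, mutant 2 and control 1, where beta cells had 52.3%, 31.4% and 41.4%, and overlapped in control 2, where they had 35.8%. Among insulin-low PP cells 3 of 63 had Xist alone (4.76%) and among insulin-rich ones 7 of 34 (20.6%), against 43.5% of alpha and 34.1% of delta cells. The Y-linked genes counted here include Eif2s3y, which was itself higher in PP cells. A higher level of it makes more cells count as Y-linked, so these shares are not separate from the differences of Eif2s3y and Xist. Each pool held both sexes, so sex and cell type cannot be told apart in the comparisons of PP cells with the other gates. Whether the sexes took part in the differences of other genes was not tested.

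**Figure D4:**
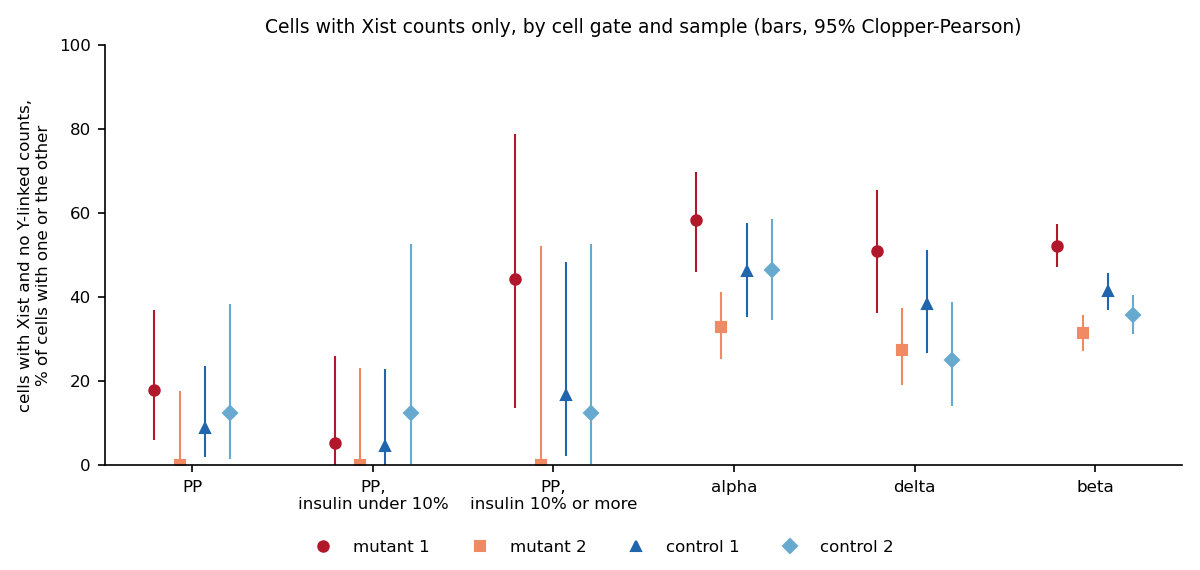
Share of cells with Xist counts and none of the Y-linked genes among cells with one kind of count but not both, by gate and sample, with 95% Clopper-Pearson intervals. PP cells lay at 0% to 17.9% and alpha, delta and beta cells at 25% to 58.3%.

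PP cells made up 4.85%, 1.69%, 3.86% and 2.76% of the kept barcodes, with Clopper-Pearson intervals of 3.78% to 6.10%, 1.14% to 2.42%, 3.05% to 4.80% and 2.07% to 3.61%. The mutants thus held both the highest and the lowest share. The mean was 3.27% in mutants and 3.31% in controls, and the difference of −0.0408 percentage points compares with a standard deviation within groups of 1.67 points (exact two-sided permutation p = 1 over 6 splits, a design that cannot reach 0.05). The sign of the difference was not stable: it was −1.62 points without mutant 1 and −0.586 without control 2, but 1.54 without mutant 2, 0.505 without control 1, 0.700 for cells of at least 10% Ppy and 0.332 for insulin-low cells.

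The series asks what the loss of Atf4 does in beta cells, and PP cells show the same floxed mice outside the targeted cell type. Atf4, which encodes the transcription factor that carries the integrated stress response, on chr15:80255184-80257541, stood at 209, 245, 351 and 304 CPM in PP cells. Both mutants lay below both controls, but the difference of −0.61 ± 0.225 did not pass (edgeR adjusted p = 0.62). In the insulin-low PP cells it stood at 275, 312, 367 and 354 CPM and in the insulin-rich ones at 100, 139, 320 and 286 CPM, while beta cells held 2.74, 121, 328 and 364 CPM. Mutant 1 was thus nearly without Atf4 counts in beta cells, mutant 2 held a part, and the gap between mutants and controls in PP cells was larger in the insulin-rich than in the insulin-low class. The mutants also lay below the controls in alpha cells (225, 262, 387 and 321 CPM) and in delta cells (126, 147, 257 and 260 CPM). Insulin was not limited in either gate. It made up 3.25% to 4.47% of the alpha and 13.3% to 19.5% of the delta sums, and the part of insulin-rich barcodes in these levels was not tested. Per cell, 34 of 68, 21 of 29, 52 of 77 and 30 of 52 PP cells held an Atf4 UMI. With the cells thinned to 1000 UMIs the shares were 19.4%, 34.5%, 25.3% and 23.1%, so the mutants held both the lowest and the highest share and the groups overlapped.

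Between mutants and controls, 1 of 6078 tested genes was higher in PP cells (0.0165%) and 1 was lower (0.0165%), which is 0.0329% in both directions together. Without adjustment, 413 genes had a p under 0.05, DESeq2 called none (58 without adjustment) and limma-voom called 3 higher and 1 lower. Both genes are discussed with their insulin classes, because control 2 held the most insulin-rich cells.

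Cdkn1a, which encodes the cell cycle inhibitor p21 and is a target of p53 (chr17:29090976-29100727), was the gene that was higher in mutants. Its level in PP cells was 256, 108, 26.8 and 45.0 CPM (2.41 ± 0.377, edgeR adjusted p = 0.0181), from 122, 22, 14 and 16 UMIs. The groups did not overlap, as in 22.3% of all tested genes with mutants above controls. In the insulin-low PP cells the levels were 87.2, 48.0, 26.7 and 104 CPM, and the groups overlapped (0.68, adjusted p = 0.952 by edgeR with those cells alone). In the insulin-rich PP cells they were 535, 203, 27.1 and 23.2 CPM, and beta cells held 492, 280, 14.8 and 26.1 CPM. The single cells with the most counts gave 40.2% and 50.0% of the Cdkn1a UMIs in mutants 1 and 2, and without mutant 1 the difference was 1.55 (adjusted p = 0.438).

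Atf5, a transcription factor gene that Atf4 induces (chr7:44812256-44816658), was the gene that was lower in mutants. Its levels were 29.3, 63.7, 134 and 222 CPM (−2.16 ± 0.373, edgeR adjusted p = 0.0351), again without overlap, as in 14% of all tested genes with mutants below controls. In the insulin-low PP cells it stood at 23.5, 56.0, 38.5 and 52.0 CPM and in the insulin-rich ones at 39.0, 76.0, 309 and 286 CPM. The difference was −0.26 in the insulin-low cells (adjusted p = 0.987) and −1.54 without mutant 1 (adjusted p = 0.357). Beta cells held 36.2, 269, 478 and 571 CPM. In both genes, then, the separation of the groups was found in the PP cells with many insulin counts and not in those with few.

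**Figure D5:**
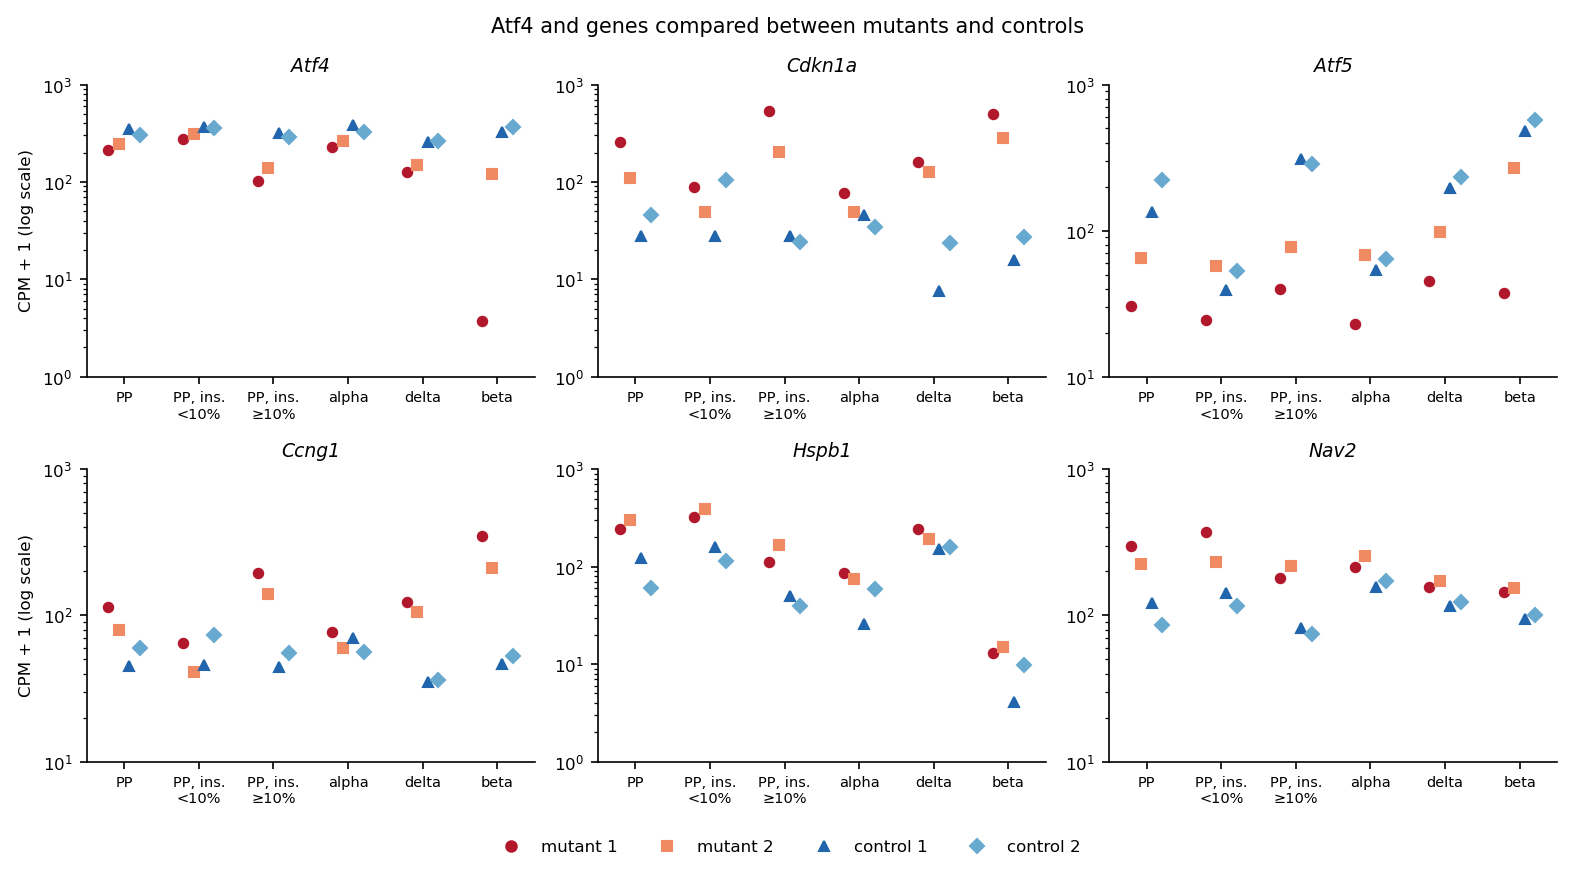
Levels (CPM + 1, log scale) of 6 genes by sample in all PP cells, in PP cells under and at or over 10% insulin, and in alpha, delta and beta cells. Cdkn1a and Atf5 separated mutants from controls in all and in insulin-rich PP cells, but overlapped in insulin-low PP cells.

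The genes of next lowest p did not pass. Hspb1, a small heat shock protein gene, stood at 241, 304, 121 and 59.1 CPM (1.47, edgeR adjusted p = 0.0574) and at 319, 392, 160 and 114 CPM in the insulin-low PP cells. The neuronal guidance gene Nav2 stood at 300, 225, 121 and 84.5 CPM and the adhesion gene Sdk1 at 365, 127, 84.3 and 53.5 CPM, both with the same adjusted p. In these 3 genes the mutants lay above the controls also among insulin-low cells, where Nav2 stood at 372, 232, 142 and 114 CPM. Gm17660 stood at 39.8, 19.6, 109 and 101 CPM (−1.73, adjusted p = 0.0746), and all 3 other gates showed the same order, with 45.2, 23.1, 88.7 and 80.4 CPM in beta cells. The amylase gene Amy2a5 was lower in the mutants of every gate too, at 20.9, 19.6, 65.1 and 81.6 CPM in PP and 17.6, 17.0, 58.3 and 61.0 CPM in beta cells (edgeR adjusted p = 0.167 in PP cells). The 12 acinar markers together came to 90.1, 157, 234 and 400 CPM in PP cells, a level that moved with the groups, and their part in other results was not tested. The 7 endothelial markers came to 52.4, 29.4, 70.9 and 304 CPM and the 9 macrophage markers to 205, 93.1, 117 and 113 CPM, with control 2 high in the first and mutant 1 in the second.

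By list, no group of genes passed as more than single members. Of 24 tested Atf4 targets, Atf5 alone was lower and none was higher (median −0.26, beside 0.00 over all genes). Of 14 tested p53 targets, Cdkn1a alone was higher (median 0.23), and Ccng1 stood at 113, 78.4, 44.1 and 59.1 CPM (0.91, edgeR adjusted p = 0.603). None of 20 tested chaperones, 82 ribosomal proteins, 24 islet factors, 25 processing and granule genes or 17 immediate early genes passed (medians −0.32, 0.05, 0.00, −0.09 and −0.03). Pyy did not pass either (0.15, adjusted p = 0.966), nor did Ins1 and Ins2, at 28063, 26425, 36242 and 86090.5 CPM for Ins1.

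The last comparison asked whether the mutant effect in PP cells differed from that in beta cells. Each sample served as its own block in this fit, and 11 of 12811 genes were higher (0.0859%) and 12 lower (0.0937%), 0.180% in all. In this fit edgeR used a spread shared among genes and none of a gene's own, so a gene whose replicates lie far apart can pass. The same held in all comparisons without a filter on low counts. It also held between mutants and controls without mutant 2, control 1 or control 2. Of 13 named genes, 12 chosen by size and Ccng1, 4 passed with limma-voom (Pdyn, Peak1, Spp1 and Uchl1). Atf4 had the lowest p: its mutant effect in PP cells lay 3.09 ± 0.26 above that in beta cells (edgeR adjusted p = 2.26e-28), and without mutant 1 the difference was 1.06 (adjusted p = 0.768). For Cdkn1a and Ccng1 the mutant effect was smaller in PP than in beta cells, with differences of −1.86 ± 0.371 and −1.58 on the log2 scale (edgeR adjusted p = 0.00062 and 0.00265). Without control 1 their adjusted p was 0.0798 and 0.0595, without control 2 it was 0.32 and 0.439, and without mutant 1 it was 0.00648 and 0.638. By limma-voom the adjusted p was 0.166 for Atf4, 0.0576 for Cdkn1a and 0.11 for Ccng1. In beta cells Ccng1, a cyclin gene that p53 induces, stood at 348, 209, 45.2 and 51.3 CPM.

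Spp1 was in this comparison again. It stood at 39.8, 8.80, 1.50 and 3.42 CPM in beta cells, and its effect in PP cells was 2.19 lower (edgeR adjusted p = 5.1e-10), a difference that did not pass without mutant 1 (−1.40, adjusted p = 0.638) or without control 1 (−1.31, adjusted p = 0.25). Pdyn, the precursor of dynorphins, stood at 209, 156, 34.0 and 67.7 CPM in beta cells and at 14.7, 9.80, 32.6 and 36.6 CPM in PP cells. Mutants were thus above controls in beta cells and below them in PP cells, the latter from 7, 2, 17 and 13 UMIs. With insulin-low PP cells alone the difference for Pdyn, −2.96, did not pass. Uchl1, a deubiquitinase of neuroendocrine cells, held 92.2, 83.3, 67.1 and 73.2 CPM in PP cells and 1.37, 1.83, 25.5 and 4.39 CPM in beta cells. The Uchl1 call rests on control 1, whose beta cells held most of it: without control 1 the difference was 1.64 and did not pass.

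The lists gave few calls in this comparison too. Of 44 tested Atf4 targets 1 was higher, Asns, which encodes asparagine synthetase (1.53, edgeR adjusted p = 0.044), with a median of 0.43 beside −0.01 over all genes. Of 23 tested p53 targets 2 were lower, Cdkn1a and Ccng1, with a median of −0.70. None of 84 ribosomal protein genes passed by edgeR, although 32 had an unadjusted p under 0.05 and their median was 0.41.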

How the data were processed

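Islet cells of 2 mutant and 2 control pools were profiled by inDrops. The deposited files hold counts, whole numbers of UMIs per gene and barcode, which the authors made per the labels; the submitters' processing notes name Seurat and mm10, and the aligner is not given in the sources used here. Kept were barcodes in which 500 or more genes were detected and mitochondrial counts stayed under 20% (1403, 1714, 1997 and 1881 cells of 2352, 2597, 3272 and 2893 barcodes). No doublet caller was run, and cells with insulin counts were kept and also given apart; spiked K562 cells cannot be told apart in these files.

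Counts were summed per gate and sample. Alpha cells had at least 10% Gcg, delta cells at least 3% Sst, beta cells at least 20% insulin and under 1% of each other hormone. The alpha and delta gates had no limit on insulin. Mutants were compared with controls, PP with other gates (with the sample as a block) and the mutant effect between PP and beta cells by edgeR 4.0.16 (TMM, quasi-likelihood, Benjamini-Hochberg) in R 4.3.3. The script was tested on simulated data. Alternatives used limma 3.58.1, DESeq2 1.42.0, other scalings, filters, gates and left-out samples; the "single hormone" cells and leaving hormones out of the counts were added after seeing the data. Python 3.11.15 with numpy 2.4.6, scipy 1.17.1, pandas 2.3.3 and matplotlib 3.10.9 did the rest. Of 456 genes with values, 454 matched GENCODE vM21. Results of a few genes are not reported here.

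The members and lists were chosen with earlier results of these data known. Named genes were the 25 higher and 12 lower in PP cells with the largest smallest difference among genes past all 3 tests at an average log2 CPM of at least 4; for mutants against controls those that passed and, up to 6 in each direction, those of lowest p at an average log2 CPM of at least 5; the 6 largest each way for the difference of effects; the genes of lowest p in each list; and a fixed set of hormone, Atf4 and p53 genes.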

Additional observations from a re-analysis of the deposited data

Results flagged for a closer look

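For 13 genes the mutant effect in PP cells differed from that in beta cells by the test of that difference itself (edgeR, adjusted over all genes). Atf4 (3.09), Uchl1 (3.43), Cdkn1a (−1.86), Ccng1 (−1.58), Spp1 (−2.19) and Pdyn (−3.35) are described above, on the log2 scale.

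In the other 7, most PP counts came from 1 library. Cd74 (10.67) had 21 UMIs in 8 PP cells, all in mutant 1, and its fitted value depends on the prior count and is no bound. Apoe (4.39) had 64, 0, 4 and 1 UMIs in mutant 1, mutant 2, control 1 and control 2, of which 40 came from 1 cell. H2-Aa (3.87) had 41, 0, 6 and 1 UMIs and H2-Eb1 (3.96) had 25, 0, 3 and 0. These 4 are genes of antigen-presenting cells and macrophages, whose 9 markers summed to 205 CPM in the PP cells of mutant 1 and to 93.1 to 117 CPM in the others; their part was not tested. Flt1 (−9.86), an endothelial receptor gene, had 21 UMIs in 11 PP cells of control 2 and none elsewhere, and its fitted value is no bound either. In that library the 7 endothelial markers summed to 304 CPM in PP cells, against 29.4 to 70.9 CPM in the others. Peak1 (−4.18) had 12, 1, 65 and 2 UMIs, high in control 1. Otud7a (−2.49) had 23, 15, 30 and 123 UMIs, high in control 2, where it stood at 790 CPM in insulin-low PP cells against 44.5 to 56.0 CPM in the others.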

How the results depend on the processing

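With library totals, 4 genes were higher in mutant PP cells, and 1902 were higher and 675 lower than in beta cells. Without a filter, 19 were higher and 19 lower in mutants and 1739 lower than in beta cells. DESeq2, cells of at least 10% Ppy, insulin-low cells and single hormone cells each gave 0 and 0 between mutants and controls (58, 104, 204 and 93 genes with an unadjusted p under 0.05), cells of at least 1% Ppy 0 lower, cells of at least 1000 genes 4 higher, and limma-voom 3 higher. For the difference of effects, limma-voom gave 5 higher and 6 lower, insulin-low cells 6 and 7, and single hormone cells 4 and 4. Against alpha cells, the controls alone gave 389 higher and 369 lower, insulin-low cells 334 higher and single hormone cells 230 higher. Against delta cells, the controls gave 157 and 178 and insulin-low cells 616 lower. Against beta cells, the controls gave 670 and 675 and single hormone cells 751 higher. Leaving out 1 sample gave, between mutants and controls, 2 to 27 higher (27 without control 1) and 0 to 35 lower (35 without control 1). It gave 449 to 526 higher and 427 to 533 lower against alpha, 206 to 398 and 223 to 356 against delta, 877 to 1171 and 806 to 990 against beta cells, and 1 to 12 and 3 to 14 for the difference of effects. Where 1 sample was left in a group, it was assumed to vary like the others. Without mutant 1, Apoe (−7.50), Cd74 (−0.0288), H2-Aa (−7.92) and H2-Eb1 (−7.26) reversed in the difference of effects, and none passed. The highest values of these 4 with 1 sample left out were 5.77, 12.1, 5.55 and 10.6. Among single genes 1330 values kept their call and direction, 156 lost the call and 39 gained it. The cause was not tested.

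The replicate numbers did not pair the samples (correlation of deviations −0.00723 over 4592 genes). With the replicate number as a block, 5 genes were higher in mutants (Cdkn1a, Hspb1, Sdk1, Nav2 and Dnajc1) and 2 lower (Atf5 and Gm17660).

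Depth limits the mutant comparison: the shallowest PP sum held 204013 UMIs, and genes under about 10 CPM rest on few UMIs.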
